A study of Mus musculus with 10 samples.

Results

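The nuclear genes of the mitochondrial ribosome were examined in R2 cells, erythroid precursors sorted from bone marrow as positive for CD71 (transferrin receptor) and Ter119 (an antigen of erythroid cells). Members were the genes whose symbol is Mrpl or Mrps followed by a number and at most 1 letter. This rule found 77 of 24421 listed genes, and all 77 were among the 11846 genes tested, which were those kept by edgeR's low-count filter. RNA-seq counts came from 10 libraries of 1 mouse each, in 4 genotypes. There were 3 Ddx41+/+;Trp53+/+ mice (10, 11 and 12), 2 Ddx41+/-;Trp53+/+ mice (32 and 34), 3 Ddx41+/+;Trp53+/- mice (22, 23 and 24) and 2 Ddx41+/-;Trp53+/- mice (46 and 47). Mice 35 and 45, named in the deposited table as removed, were not analysed here. All were lethally irradiated BoyJ recipients of 1000000 marrow cells from donors with RosaCreERT2, a tamoxifen-activated Cre expressed in every donor cell type. Donors of the Ddx41+/- mice carried 1 floxed Ddx41 allele, and every recipient, controls included, was given 1 mg of tamoxifen a day for 5 days in 2 rounds separated by 2 days. The Trp53 knockout allele was present in the germline of the donors and needed no Cre. Marrow was taken 8 weeks after transplant and about 100000 cells were sorted per mouse. The recipients' own stroma, and any recipient erythroid cells that survived, had intact Ddx41 and Trp53, and no donor marker is named for the sort.

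The mitochondrial ribosome translates the few proteins encoded in mitochondrial DNA, all of them subunits of the respiratory chain and ATP synthase. Its RNAs are made inside the organelle, whereas all of its proteins are made in the cytosol from nuclear genes and imported. It has a large 39S subunit, which forms peptide bonds, and a small 28S subunit, which holds the mRNA, and each mixes proteins with bacterial counterparts and proteins found only in mitochondria. Erythroid precursors depend on mitochondria for the first and last steps of haem synthesis, and they clear these organelles as they become red cells. By role, 50 members encoded large subunit proteins, of which 30 have bacterial counterparts and 20 do not. The small subunit accounted for 26 members, 16 with bacterial counterparts and 10 without. Mrps18a and Mrps30 were counted with the large subunit, where their proteins sit in spite of their names. Mrps36 encodes a component of the oxoglutarate dehydrogenase complex and was counted in neither subunit.

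Library totals ranged from 7866648 to 20283930 counts, and the members took 0.146 to 0.177% of them. Ddx41 was at 21.9 to 26.6 CPM (counts scaled to 1000000 per library, with edgeR's TMM factors) in the Ddx41+/+ mice and at 12.5 to 16.5 CPM in the Ddx41+/- mice. Trp53 was at 57.4 to 68.1 CPM in the Trp53+/+ mice and at 40.3 to 46.2 CPM in the Trp53+/- mice, so both targeted genes followed the labels in all 10 libraries. Tfrc, which encodes CD71, was abundant, at 2692 to 3458 CPM. The adult globin genes Hba-a1, Hba-a2, Hbb-bs and Hbb-bt, which define this lineage, were each below 1.3 CPM in every library of these counts. The summed level of 11 neutrophil markers was 5023 to 8623 CPM. The summed level of 12 B cell markers was 52.3 to 106 CPM in the Ddx41+/+;Trp53+/+ mice and 133 to 222 CPM in the other 3 genotypes. In bulk libraries, fewer cells of a type and less RNA per cell cannot be told apart.

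The members lay on 17 chromosomes, with 10 on chromosome 11 and 8 on chromosome 17. Another gene started within 1000 bases upstream on the opposite strand in 18 of 77 members (23.4%) and in 11% of 11006 tested protein-coding genes. RefSeq promoter windows of GRCm38.p6, from 250 bases before to 50 bases after the start, were matched by symbol for 68 members. Short motifs of factors that bind promoters of widely expressed genes were searched on both strands. Their letters were settled after counts of several versions had been seen, so the shares below are a description and not a test. CCGGAAG, the core that ETS factors bind, was in the windows of 25 of 68 members (36.8%) and of 20.9% of 9047 tested genes. AAGATGGC, the core of the YY1 site, was in 12 members (17.6%) and in 5.63% of tested genes. GCATGCG, part of the NRF1 site, was in 8 members (11.8%) and in 7.41% of tested genes. At least 1 of these motifs was in 37 members (54.4%) and in 30.3% of tested genes, and no member had an ETS match that overlapped a YY1 match. GGGCGGG of the SP1 site was in 42.6% of members and 51.7% of tested genes, CCAAT in 39.7% and 43.2%, and TATAAA in 7.35% and 8.59%. The 200 bases upstream of the start are given for 4 members named in the comparisons below and for Mrps18b, a paralog of Mrps18a and Mrps18c. With the settings of the report, edgeR called none of these 4 different between genotypes. They are a selection, and other members named in those comparisons, such as Mrpl2, are not shown. Each sequence reads 5′ to 3′ on the gene's strand, and capitals mark ETS, YY1 and NRF1 matches.
Mrpl34, chr8:71464726-71464925, plus strand: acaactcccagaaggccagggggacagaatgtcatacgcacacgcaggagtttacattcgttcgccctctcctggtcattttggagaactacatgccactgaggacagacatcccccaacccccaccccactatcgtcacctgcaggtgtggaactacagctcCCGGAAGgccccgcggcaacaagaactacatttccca
Mrps27, chr13:99344586-99344785, plus strand: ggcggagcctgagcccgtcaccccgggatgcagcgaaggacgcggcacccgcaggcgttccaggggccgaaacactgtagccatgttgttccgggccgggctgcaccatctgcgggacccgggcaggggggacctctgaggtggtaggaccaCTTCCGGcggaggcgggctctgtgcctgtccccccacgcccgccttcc
Mrps12, chr7:28741822-28742021, minus strand: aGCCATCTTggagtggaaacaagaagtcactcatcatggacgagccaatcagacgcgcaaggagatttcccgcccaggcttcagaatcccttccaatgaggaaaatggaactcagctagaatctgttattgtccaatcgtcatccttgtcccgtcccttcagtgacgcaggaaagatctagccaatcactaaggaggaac
Mrps18b, chr17:35916441-35916640, minus strand: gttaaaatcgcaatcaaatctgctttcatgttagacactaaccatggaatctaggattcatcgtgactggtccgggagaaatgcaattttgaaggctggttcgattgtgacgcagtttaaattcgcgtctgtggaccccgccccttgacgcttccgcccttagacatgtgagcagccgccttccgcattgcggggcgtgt
Mrpl44, chr1:79775818-79776017, plus strand: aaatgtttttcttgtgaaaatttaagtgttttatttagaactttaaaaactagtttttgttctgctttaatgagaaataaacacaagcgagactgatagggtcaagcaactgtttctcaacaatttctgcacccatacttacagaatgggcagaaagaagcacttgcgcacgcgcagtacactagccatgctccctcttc
The Mrpl34 and Mrps27 sequences held an ETS match and the Mrps12 sequence a YY1 match, while those of Mrps18b and Mrpl44 held no match in these bases. The full windows counted above held 1 ETS and 3 NRF1 matches for Mrps18b and none for Mrpl44. Those of Mrps12 and Mrps27 each held 1 ETS and 1 YY1 match. The start of Mrps12 lay 172 bases from that of Sars2, which encodes mitochondrial seryl-tRNA synthetase, and the start of Mrps27 lay 81 bases from that of Ptcd2.

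The members were expressed at moderate levels and differed more from each other than any of them differed between mice. Per length, as RPKM (CPM divided by the kilobases of the principal transcript), their means over 10 mice ran from 1.26 to 77.2 with a median of 12.9. The median was 14.5 RPKM for large subunit genes and 7.03 RPKM for small subunit genes, against 441 RPKM for 81 cytosolic ribosomal protein genes and 5.54 RPKM for all tested genes with a known length. Small subunit genes with bacterial counterparts had a median of 12.7 RPKM, and those found only in mitochondria had a median of 4.61 RPKM. Large subunit genes with and without bacterial counterparts had medians of 14.7 and 14.5 RPKM. The ratio of the large subunit median to the small subunit median was 1.84 to 1.89 in the Ddx41+/+;Trp53+/+ mice, 2.01 and 2.38 in the Ddx41+/-;Trp53+/+ mice, 1.95 to 2.30 in the Ddx41+/+;Trp53+/- mice and 1.91 and 1.93 in the Ddx41+/-;Trp53+/- mice, and the highest value came from the shallowest library, mouse 34. Levels per length depend on the annotated transcript, and members annotated with a long 3′ end come out lower.

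**Figure D1:**
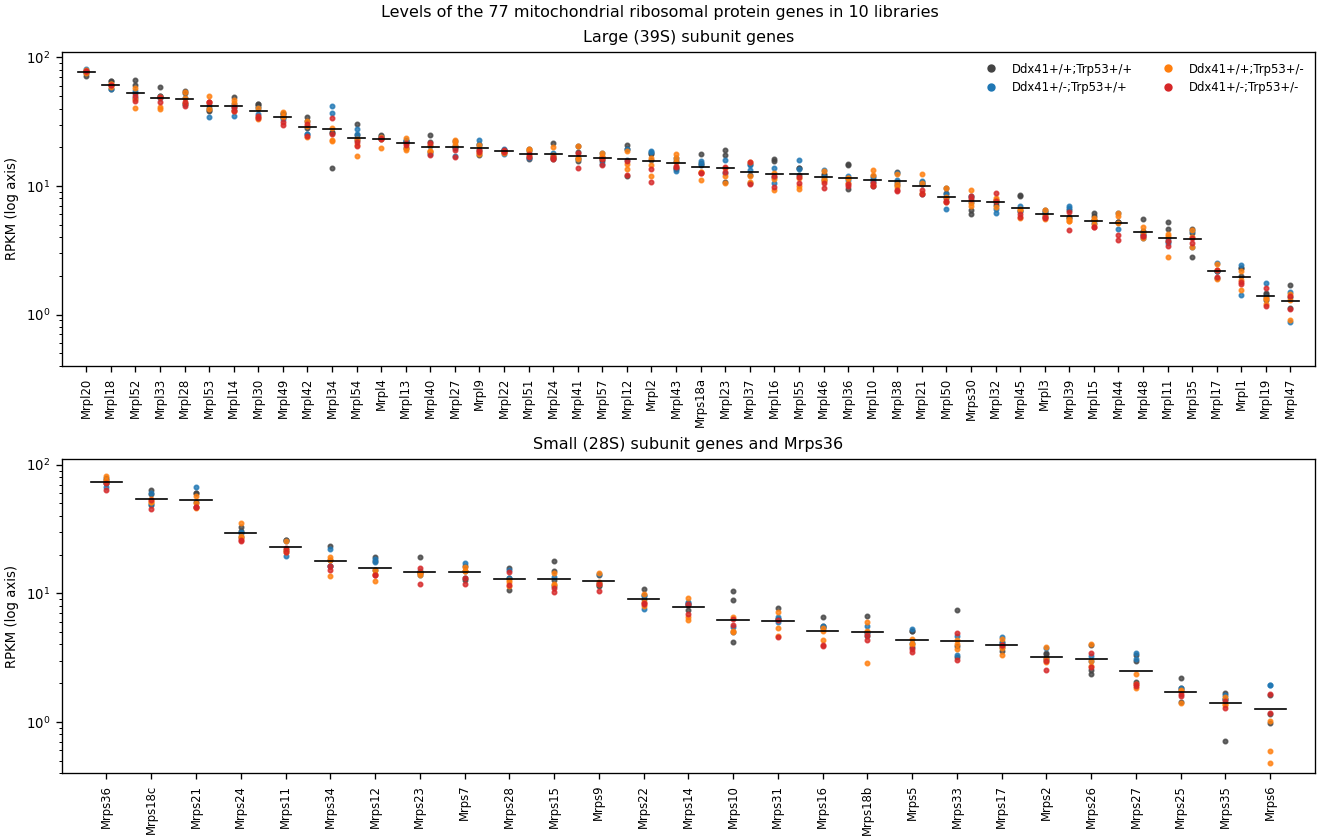
Level of each of the 77 genes in RPKM on a log axis, with large subunit genes (Mrps18a and Mrps30 included) above and small subunit genes and Mrps36 below. Points are the 10 mice coloured by genotype and bars are means, which run from 77.2 RPKM for Mrpl20 to 1.26 RPKM for Mrps6.

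The highest large subunit gene was Mrpl20, a protein with a bacterial counterpart, at 77.2 ± 2.67 RPKM (SD, n = 10 mice), followed by Mrpl18 at 61.1 ± 3.10 RPKM and Mrpl52 at 52.3 ± 7.85 RPKM. The ranges of Mrpl20 (71.4 to 81.3 RPKM) and Mrpl18 (56.4 to 65.6 RPKM) did not overlap, whereas Mrpl18 and Mrpl52 (40.4 to 66.6 RPKM) did. The gap between Mrpl20 and Mrpl18 depended on the length used. Over the merged exons of annotated coding transcripts, the means were 63.7 RPKM for Mrpl20 and 61.1 RPKM for Mrpl18. The lowest large subunit genes were Mrpl19 at 1.40 ± 0.184 RPKM and Mrpl47 at 1.27 ± 0.267 RPKM, which overlapped. In the small subunit, Mrps18c at 53.7 ± 5.75 RPKM and Mrps21 at 53.2 ± 7.37 RPKM were not separated, and Mrps24 followed at 29.2 ± 3.07 RPKM. Over merged exons the mean of Mrps18c was 36.5 RPKM and that of Mrps21 was 52.8 RPKM. Mrps35 at 1.41 ± 0.270 RPKM and Mrps6 at 1.26 ± 0.521 RPKM were lowest. Among the paralogs Mrps18a, Mrps18b and Mrps18c, which occupy different sites of the ribosome, the mean levels were 14.0 ± 1.92, 4.96 ± 1.00 and 53.7 ± 5.75 RPKM, and their ranges did not overlap. Part of the Mrps18b sequence (60.5% of its 75-base stretches) also occurs in transcripts of other genes, most of it in Gm16279, so its counts are uncertain. Mrps36 was high, at 73.1 ± 5.16 RPKM. The same limit holds for Mrps36 (25.2%, most in Mrps36-ps2) and for Mrpl19 (39.5%, most in Gcfc2). Mrps30, whose protein is in the large subunit, was at 7.66 ± 0.973 RPKM, and Mrpl12, whose protein also binds the mitochondrial RNA polymerase, was at 16.2 ± 3.16 RPKM.

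Most members varied little from mouse to mouse. The highest CPM was under 1.5 times the lowest in 42 members and under 2 times in 71. Mrpl22 was steadiest, with a ratio of 1.099 between its highest and lowest mouse, followed by Mrpl20 at 1.14. The largest ratios were those of Mrps6 at 4.05, Mrpl34 at 2.99 and Mrps10 at 2.50. Mrps6 had the fewest reads of all members, 5 to 27 counts per library. With Trp53+/+ it was at 0.830 to 1.37 CPM in Ddx41+/+ and at 1.64 and 1.65 CPM in Ddx41+/- mice. With Trp53+/- it was at 0.407 to 0.865 CPM in Ddx41+/+ and at 0.988 and 1.40 CPM in Ddx41+/- mice. It shares 30.1% of its 75-base stretches with other genes, most with Gm49711. Mrps10, which encodes a protein at the head of the small subunit, was at 10.5, 9.09 and 4.22 CPM in the Ddx41+/+;Trp53+/+ mice and at 5.07 to 6.70 CPM in the other 7 mice. Mice 10 and 11 were thus above the other 8, and mouse 12 of the same genotype was below all of them. Mouse 12 was also the lowest of the 10 mice for Mrpl34 (8.44 CPM) and Mrps35 (2.97 CPM).

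The members shifted together, by small amounts, between individual mice. For each gene, log2 CPM (prior count of 2) was taken relative to its mean over the 10 mice, and the median over the 77 members was then read in each mouse. This median was 0.05, 0.14 and -0.04 in the Ddx41+/+;Trp53+/+ mice 10, 11 and 12, and 0.04 and 0.06 in the Ddx41+/-;Trp53+/+ mice 32 and 34. It was 0.07, -0.11 and -0.05 in the Ddx41+/+;Trp53+/- mice 22, 23 and 24, and -0.09 and -0.11 in the Ddx41+/-;Trp53+/- mice 46 and 47. The ranges of the Trp53 genotypes overlapped through mouse 22, a Trp53+/- mouse that lay above 4 of the 5 Trp53+/+ mice. The other Trp53+/- mice (23, 24, 46 and 47) were below all 5 Trp53+/+ mice, of which mouse 12 was the lowest. In mouse 11, 68 of 77 members were above their own mean, and in mouse 47, 12 were. Summed over the members, the level was 1531 to 1741 CPM in the Trp53+/+ mice and 1467 to 1679 CPM in the Trp53+/- mice. The pooled SD of the members' median within genotypes was 0.074 on the log2 scale.

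**Figure D2:**
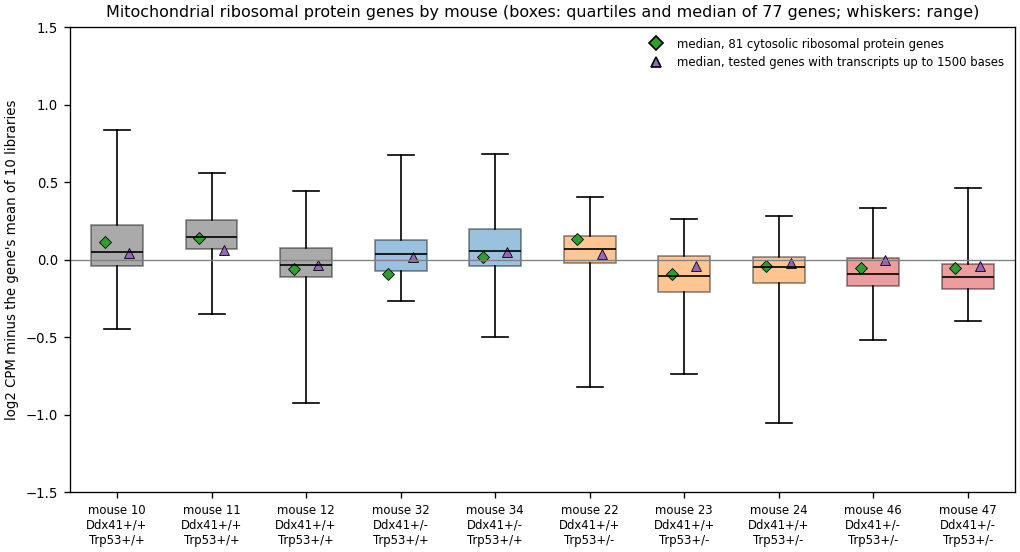
Deviation of each of the 77 members from its own mean, in log2 CPM, for each mouse, with the genotype under it. Boxes show the quartiles and median and whiskers the range, diamonds the median of 81 cytosolic ribosomal protein genes, and triangles the median of tested genes with transcripts of up to 1500 bases. Mouse 11 has the highest members' median (0.14) and mouse 47 the lowest (-0.11), and diamonds and triangles are above 0 in mice 10, 11, 34 and 22.

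Other short transcripts moved between mice in a similar order. The members had a median transcript length of 1288 bases, against 2941 bases for 11429 tested genes, and 47 members were in the class of up to 1500 bases. The median deviation of the 1909 tested genes in that class was 0.04, 0.06 and -0.03 in mice 10, 11 and 12, 0.01 and 0.05 in mice 32 and 34, 0.04, -0.04 and -0.02 in mice 22, 23 and 24, and -0.003 and -0.04 in mice 46 and 47. The 3549 tested genes with transcripts over 4000 bases had the opposite sign in 9 of these 10 mice, from -0.03 in mouse 10 to 0.05 in mouse 47. Cytosolic ribosomal protein genes, also short, had medians of 0.12, 0.14 and -0.06 in mice 10, 11 and 12, -0.09 and 0.02 in mice 32 and 34, 0.13, -0.09 and -0.04 in mice 22, 23 and 24, and -0.05 in both mice 46 and 47. They differed from the members most in mouse 32. The part of transcript length in the members' differences was not tested. As an alternative, tested genes were put in 10 bins of equal size by transcript length, and the median of a member's bin was subtracted from its log2 fold change. Those values are given beside each comparison.

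Loss of 1 Ddx41 allele was examined first with Trp53+/+. No member was a DEG (edgeR quasi-likelihood test, fold change over 1.5 and Benjamini-Hochberg adjusted p under 0.05 over all tested genes), and 0.54% of tested genes were. At an unadjusted p under 0.05, 1 member was higher (background 5.52%) and none was lower (background 4.12%). DESeq2 gave the same unadjusted counts and called 1 member, Mrpl34. The members' median log2 fold change was -0.04 (-0.04 with length bins subtracted), beside 0.001 over all tested genes, and 45 of 77 were lower. For 60 members the 95% interval of the fold change lay within 1.5-fold in both directions, against 51.3% of tested genes.

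Mrpl34, a small large-subunit protein with a bacterial counterpart, was at 16.03, 15.6 and 8.44 CPM in the Ddx41+/+;Trp53+/+ mice and at 22.2 and 25.3 CPM in the Ddx41+/-;Trp53+/+ mice. Both Ddx41+/- mice were above all 3 Ddx41+/+ mice. How many of all tested genes were separated in this way was not counted, so this is a description only. The log2 fold change was 0.81 ± 0.225 (SE; edgeR adjusted p = 0.150, DESeq2 adjusted p = 0.0376), and it was between 0.58 and 0.96 over 18 alternatives. The lone low library was mouse 12, and the levels with Trp53+/- were 17.1, 13.7 and 13.7 CPM in Ddx41+/+ and 20.4 and 15.3 CPM in Ddx41+/- mice, which overlapped. Mrpl34 lies at chr8:71464959-71465747 of GRCm38, and the region within 10 Mb on each side held 6 of the 64 DEGs of this comparison and 1.12% of the tested genes. Ddx41 itself is on chromosome 13. The part of this region in the difference was not tested. Mrpl42 (16.8 and 16.9 CPM against 18.95 to 22.7 CPM; adjusted p from edgeR = 0.575) and Mrps10 (edgeR adjusted p = 0.596) had the next smallest p-values, and neither passed the test.

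With Trp53+/-, no member was a DEG between the Ddx41 genotypes by edgeR or by DESeq2, and 0.0422% of tested genes were DEGs by edgeR. At an unadjusted p under 0.05, no member was higher (background 2.15%) and 2 were lower (background 1.6%) by both tools. The median log2 fold change was -0.07 (-0.06 with length bins subtracted), beside -0.005 over all tested genes, and 53 of 77 were lower. Mrpl44, a large subunit protein with the fold of an RNA-cutting enzyme, was at 7.30, 8.71 and 8.32 CPM in Ddx41+/+ and at 5.40 and 5.89 CPM in Ddx41+/- mice. The genotypes did not overlap, a description only, because the share of all tested genes separated in this way was not counted here. The log2 fold change of -0.53 ± 0.205 did not pass the test (edgeR adjusted p = 1.00). Mrpl44 overlaps Wdfy1 on the opposite strand over 7.66% of its exons, and it is not stated whether reads were counted by strand. With Trp53+/+, Mrpl44 was at 7.44, 7.44 and 7.47 CPM in Ddx41+/+ and at 8.76 and 6.60 CPM in Ddx41+/- mice. Mrpl49, whose start is 59 bases from that of the cytosolic ribosomal protein gene Fau, was at 61.4, 66.5 and 60.6 CPM and at 52.5 and 55.5 CPM (log2 fold change -0.22 ± 0.0914). Mrps7, which binds the small subunit rRNA, was at 31.2, 29.2 and 29.2 CPM and at 25.9 and 23.1 CPM.

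Over both Trp53 genotypes, in a model with additive Ddx41 and Trp53 terms, no member was a DEG between the Ddx41 genotypes by either tool, and 0.11% of tested genes were by edgeR. By edgeR 2 members were higher (background 5.06%) and 3 lower (background 3.93%) at an unadjusted p under 0.05, and DESeq2 gave the same counts. The median log2 fold change was -0.07 (-0.07 with length bins subtracted), and 56 of 77 members were lower. The 95% interval lay within 1.5-fold for 73 of 77 members and for 65.8% of tested genes. The other 4, Mrps6, Mrpl34, Mrps10 and Mrps33 (the last named after its values were seen), had intervals that reached past 1.5-fold. No member had Ddx41+/- mice all above (background 0.794%) or all below (background 0.777%) the Ddx41+/+ mice. The comparisons with Trp53+/+ and with Trp53+/- share no mouse, and 35 of 77 members (45.5%) were lower in both and 14 higher in both, beside 28.9% and 28.001% of tested genes. Of 81 cytosolic ribosomal protein genes, 68 were lower in both.

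**Figure D3:**
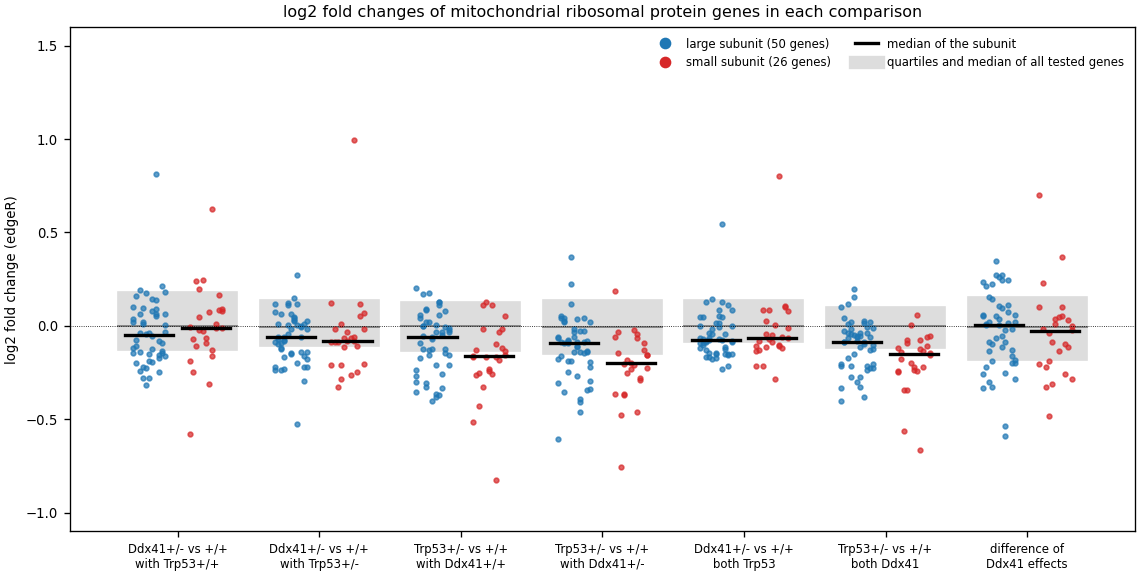
log2 fold change of each large subunit gene (blue) and small subunit gene (red) in the 7 comparisons, with the subunit medians as black bars and the quartiles of the 11846 tested genes as grey boxes. The small subunit median lies lowest in the Trp53 comparisons, at -0.16 with Ddx41+/+ and -0.20 with Ddx41+/-.

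Loss of 1 Trp53 allele was examined with Ddx41+/+. No member was a DEG by edgeR or DESeq2, and 0.912% of tested genes were by edgeR. At an unadjusted p under 0.05, no member was higher (background 5.42%) and 9 members (11.7%) were lower (background 4.02%) by both tools. The median log2 fold change was -0.12 (-0.11 with length bins subtracted), beside 0.0005 over all tested genes, and 57 of 77 members were lower. The small subunit median was -0.16, with 22 of 26 genes lower, and the large subunit median was -0.06, with 35 of 50 lower. Without mouse 11 the members' median was -0.05 and without mouse 22 it was -0.15. In this comparison the summed B cell markers were at 52.3 to 106 CPM in Trp53+/+ and 176 to 222 CPM in Trp53+/- mice, 6 of the 12 markers were DEGs, and the summed macrophage markers were at 246 to 484 and 220 to 310 CPM. Their part in the members' values was not tested, here or in the other comparisons. Between the Ddx41 genotypes with Trp53+/+, all 12 B cell markers were higher in Ddx41+/- mice and 2 were DEGs. With Trp53+/-, all 10 macrophage markers were higher in Ddx41+/- mice and none was a DEG. Between the Trp53 genotypes over both Ddx41 genotypes, all 12 B cell markers were higher in Trp53+/- mice and 1 was a DEG.

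The 3 smallest p-values were those of Mrps18a, Mrpl30 and Mrpl33. Mrps18a was at 15.7, 13.3 and 12.9 CPM in the Trp53+/+ mice and at 11.4, 11.4 and 9.84 CPM in the Trp53+/- mice, so the genotypes did not overlap, with a log2 fold change of -0.37 ± 0.146 (edgeR adjusted p = 0.400). Mrpl30, which shares its promoter region with Mitd1, was at 42.1, 40.2 and 42.2 CPM against 39.2, 32.1 and 33.2 CPM (log2 fold change -0.26 ± 0.103, edgeR adjusted p = 0.400). Mrpl33 was at 28.1, 23.96 and 24.1 CPM against 23.6, 19.0 and 19.6 CPM (log2 fold change -0.30 ± 0.124, edgeR adjusted p = 0.436). Of its 75-base stretches, 26% also occur in transcripts of other genes, most in Gm43809. For Mrpl30 and Mrpl33, mouse 22 was the highest of the Trp53+/- mice and lay just below the lowest Trp53+/+ mouse. The separation of Mrps18a, Mrpl30 and Mrpl33 is a description only, since its share over all tested genes was not counted in this comparison.

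With Ddx41+/-, the Trp53 genotypes again gave no DEG among the members by either tool, and 0.169% of tested genes were DEGs by edgeR. By both tools 1 member was higher (background 2.79%) and 4 were lower (background 2.63%) at an unadjusted p under 0.05. The median log2 fold change was -0.14 (-0.09 with length bins subtracted), beside -0.004 over all tested genes, and 65 of 77 members were lower. The small subunit median was -0.20, with 25 of 26 genes lower, and the large subunit median was -0.09, with 39 of 50 lower. The single small subunit gene that was not lower was Mrps10, at 5.60 and 5.08 CPM in Trp53+/+ and 5.75 and 6.45 CPM in Trp53+/- mice. Mrpl2, a protein near the site of peptide bond formation, was at 19.2 and 18.8 CPM in the Trp53+/+ mice and at 10.98 and 14.02 CPM in the Trp53+/- mice, with a log2 fold change of -0.61 ± 0.185 (edgeR adjusted p = 0.448). Mrps27, an RNA-binding protein found only in mitochondria, was at 6.39 and 5.72 CPM against 3.66 and 3.53 CPM (log2 fold change -0.76 ± 0.294, edgeR adjusted p = 0.831). Of its exons, 24.2% overlap 6430562O15Rik on the opposite strand. Mrps16 was at 13.8 and 14.4 CPM against 10.2 and 9.98 CPM (log2 fold change -0.48 ± 0.182). These 3 genes were named for the smallest p-values of this comparison, and each had both Trp53+/- mice below both Trp53+/+ mice. The share of all tested genes separated in this way was not counted here, so the separation is a description only. Intervals were wide with 2 mice per genotype, and only 42 of 77 members had one within 1.5-fold.

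Over both Ddx41 genotypes, no member was a DEG between the Trp53 genotypes by either tool, and 0.287% of tested genes were by edgeR. By edgeR 11 members (14.3%) were lower (background 5.01%) and 1 was higher (background 6.18%) at an unadjusted p under 0.05, and DESeq2 gave 12 and 1. The median log2 fold change was -0.11 (-0.08 with length bins subtracted), beside -0.002 over all tested genes, and 64 of 77 members were lower. Small subunit genes had a median of -0.15. All 16 with bacterial counterparts were lower (median -0.14), as were 8 of the 10 without (median -0.17), beside 50.7% of all tested genes. Of 67 members (87.0%) and 66.2% of tested genes, the 95% interval lay within 1.5-fold. The comparisons with Ddx41+/+ and with Ddx41+/- share no mouse, and 49 of 77 members (63.6%) were lower in both and 4 higher in both, beside 29.3% and 28.5% of tested genes. Of 81 cytosolic ribosomal protein genes, 43 were lower in both. The members' median was below 0 in all 18 alternatives, from -0.14 without mouse 22 to -0.07 without mouse 11, a span of the same order as the SD of 0.074 between mice of a genotype.

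Of the members, 3 separated the 5 Trp53+/+ from the 5 Trp53+/- mice, all with the Trp53+/- mice lower (background 0.929%), and none separated them in the other direction (background 1.08%). These were Mrps12, Mrps18a and Mrpl55. Mrps12, a protein of the decoding site, was at 13.4 to 16.9 CPM in Trp53+/+ and 11.002 to 13.3 CPM in Trp53+/- mice (log2 fold change -0.34 ± 0.108, edgeR adjusted p = 0.218). Mrpl55 was at 11.4 to 14.99 CPM and 8.85 to 11.05 CPM (log2 fold change -0.38 ± 0.116, edgeR adjusted p = 0.198). Mrps18a was at 12.9 to 15.7 CPM and 9.84 to 11.4 CPM (log2 fold change -0.33 ± 0.111, edgeR adjusted p = 0.254). Mrpl2 had the smallest p-value, with 16.3 to 19.2 CPM and 10.98 to 16.999 CPM, which overlapped through mice 12 and 22 (log2 fold change -0.40 ± 0.120, edgeR adjusted p = 0.187). Mrpl55 lies on chromosome 11 at 10.4 Mb from Trp53, and it was the nearest of the 10 members on that chromosome, so none was within 10 Mb of the targeted gene. The other 9 had log2 fold changes from -0.27 to 0.02.

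**Figure D4:**
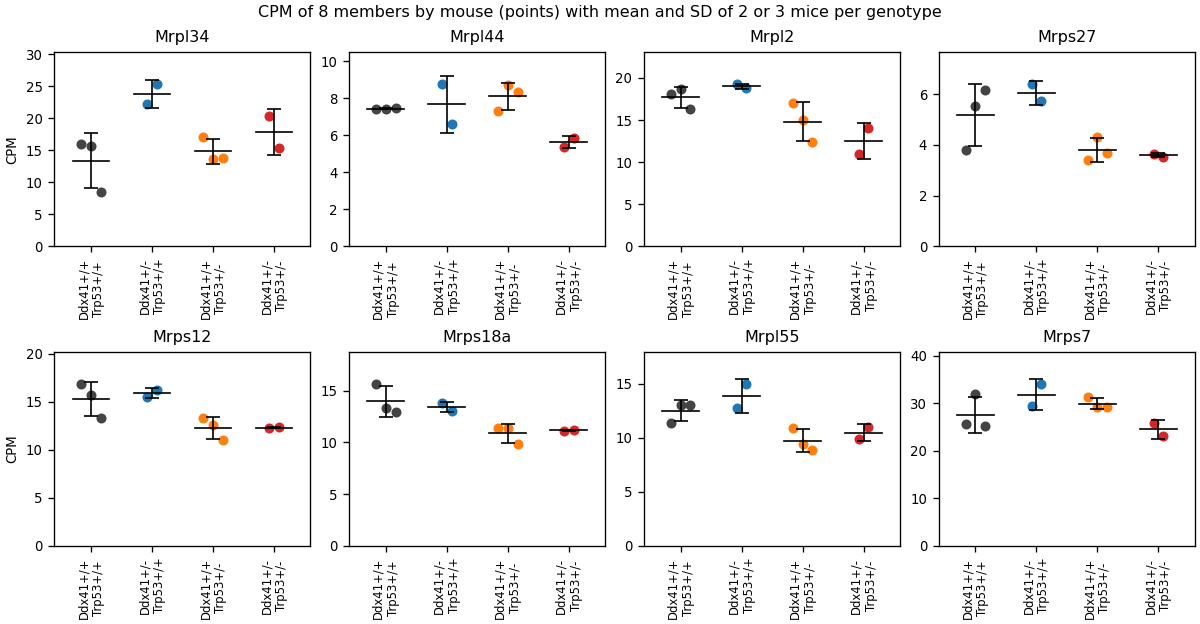
CPM of 8 members in each mouse, by genotype, with the mean and SD of 2 or 3 mice. Mrpl34 is highest in the Ddx41+/-;Trp53+/+ mice (22.2 and 25.3 CPM), Mrpl44 lowest in the Ddx41+/-;Trp53+/- mice (5.40 and 5.89 CPM), and Mrps12, Mrps18a and Mrpl55 are lower in every Trp53+/- mouse than in any Trp53+/+ mouse.

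The Ddx41 effect with Trp53+/- was set against that with Trp53+/+ by the interaction term. No member passed by edgeR or DESeq2, beside 0.0675% of tested genes by edgeR. At an unadjusted p under 0.05, no member was higher (background 2.3%) and 1 was lower (background 2.7%) by both tools. The median was -0.02 (-0.002 with length bins subtracted), with 41 of 77 members below 0. The lower member was Mrps7, which was at 25.7, 31.9 and 25.1 CPM in Ddx41+/+;Trp53+/+ and 29.5 and 34.04 CPM in Ddx41+/-;Trp53+/+ mice. Its Ddx41 effects of opposite sign differed by -0.48 ± 0.191 on the log2 scale (edgeR adjusted p = 0.866). This comparison had the widest intervals, with 27 of 77 members inside 1.5-fold.

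**Figure D5:**
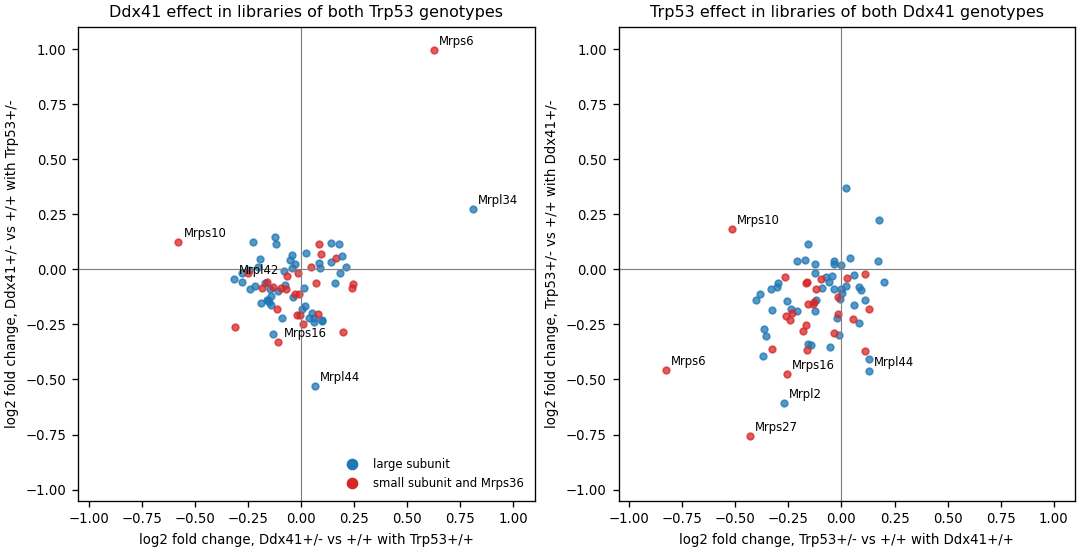
log2 fold change of each member for the Ddx41 genotypes (left) and the Trp53 genotypes (right), with the other gene +/+ on the horizontal and +/- on the vertical axis. The 2 axes of a panel share no mouse. In the right panel 49 of 77 points lie in the lower left part with both values below 0, and in the left panel 35 do.

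Among the genes singled out by role, Mrps30 was higher in every comparison but the interaction, with log2 fold changes of 0.04 to 0.19 and no unadjusted p below 0.238. Its level was 20.2 to 27.5 CPM in the Ddx41+/+;Trp53+/+ mice and 26.4 and 27.9 CPM in the Ddx41+/-;Trp53+/- mice. Mrps36 was at 50.3 to 56.8 CPM in the Ddx41+/+ mice and at 44.8 to 50.5 CPM in the Ddx41+/- mice over both Trp53 genotypes (log2 fold change -0.15 ± 0.0682, edgeR adjusted p = 0.538). Mrps18c had log2 fold changes between -0.15 and -0.07 in the comparisons of genotypes, none of which passed the test. Mrpl12 was at 15.8 to 27.2 CPM in the Ddx41+/+;Trp53+/+ mice, a spread that covered every other mouse.

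Genes that build and serve the mitochondrial ribosome were listed with the members. None of 6 ribosome subunits with other names, 13 translation factors, 26 assembly factors, 17 mitochondrial tRNA synthetases or 10 genes of mitochondrial transcription and DNA was a DEG in any of the 7 comparisons. Translation factors, assembly factors and synthetases together had a median log2 fold change of -0.03 between the Trp53 genotypes over both Ddx41 genotypes, with 31 of 56 lower, and of -0.07 between the Ddx41 genotypes, with 37 of 56 lower. The 6 subunits with other names had medians of -0.09 and -0.03, with 5 of 6 lower in each. Their levels per length were 13.9 RPKM (median) for these subunits, 4.64 for translation factors, 3.07 for assembly factors, 4.12 for synthetases and 2.21 for genes of mitochondrial transcription and DNA. The genes encoded in mitochondrial DNA were not analysed here.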

How the data were processed

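RNA from sorted CD71+Ter119+ R2 cells of 10 mice was measured as raw read counts per gene symbol, which the authors deposited without normalization. Sequencing was done on poly(A)-selected libraries on a HiSeq2500. The submitters' processing notes name FastQC 0.11.7, HISAT2 2.0.5, featureCounts 1.5.2 and the build mm10; the annotation and strand setting are not given in the sources used here, and globin counts near 0 were left as deposited. Counting error follows from 7866648 to 20283930 counts per library, but precision is set by 2 or 3 mice per genotype. In R 4.3.3 with edgeR 4.0.16, 11846 genes passed the filter by genotype, TMM factors were computed, and quasi-likelihood models with 1 mean per genotype, or with additive Ddx41 and Trp53 terms, were fitted to all libraries. All p-values were two-sided, adjusted over all tested genes. SE was the absolute log2 fold change over the square root of F. Libraries of a genotype differed beyond counting noise (chi-square per degree of freedom 6.58 to 16.8), so each counted as a replicate. Positions and lengths were those of GENCODE M21 (principal transcripts), and promoter windows those of RefSeq. Motif letters were chosen after counts of several versions had been seen.

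Members and gene lists were chosen with earlier results of these data known. Members were named when they had the 3 smallest p-values in a comparison of genotypes, the highest or lowest levels or the largest mouse ratios, or by role. Alternatives were DESeq2 1.42.0, its size factors in edgeR, no TMM scaling, haemoglobin genes left out, no filter on low counts, a stricter filter (10 or more counts in all libraries), fits of the compared genotypes alone, no fold limit, an unadjusted p, mice 12 and 23 left out together, and each mouse left out. Subtraction of length-bin medians was chosen after seeing the data. Scripts were tested on simulated data first. Figures were drawn in Python 3.11.15 with matplotlib 3.10.9.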

Additional observations from a re-analysis of the deposited data

How the results depend on the processing

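A DEG needed a fold change over 1.5, so smaller changes in single members could not be called at any number of mice. What the test could find for changes of this size with 2 or 3 mice per genotype was not measured. No member was called by edgeR in any comparison with the settings of the report, with an adjusted p and no limit on the fold change, or when each mouse was left out (0 to 0 calls in every comparison). DESeq2 called 1 member between the Ddx41 genotypes with Trp53+/+, and edgeR with no filter on low counts called 1 there; both were Mrpl34 (log2 fold change 0.81 in each, adjusted p = 0.0376 and 0.000612), and over all genes the calls in that comparison went from 64 to 131 and 243. At an unadjusted p and no fold limit, edgeR called 1 and 2 members between the Ddx41 genotypes with Trp53+/+ and Trp53+/-, 9 and 5 between the Trp53 genotypes with Ddx41+/+ and Ddx41+/-, 5 and 12 for Ddx41 and Trp53 over both genotypes of the other gene, and 1 for the interaction. The filter of at least 10 counts removed Mrps6.

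The members' median log2 fold change moved by less than the SD between mice of a genotype (0.074) in 129 of 130 recomputed values. The exception was the Trp53 comparison with Ddx41+/+ without mouse 11, at -0.047. This limit is wide, because the SD is that of single mice and not the error of a difference between groups. It exceeds the size of the main median in every Ddx41 comparison and in the interaction, where a move to 0 would not have counted. When mice were left out in turn the medians ran from -0.07 to 0.02 for Ddx41 with Trp53+/+ (above 0 only without mouse 11), from -0.10 to -0.03 with Trp53+/-, from -0.15 to -0.05 for Trp53 with Ddx41+/+, from -0.16 to -0.12 with Ddx41+/-, from -0.10 to -0.04 and from -0.14 to -0.07 for Ddx41 and Trp53 over both genotypes, and from -0.07 to 0.02 for the interaction (above 0 without mouse 12 and without mouse 22). No named member changed direction in the comparison that named it. Apart from the unadjusted p, which called the members counted above, the only settings that changed the call of a named member were DESeq2 and no filter on low counts, both for Mrpl34; the cause was not tested. No paired analysis was possible because the genotypes share no replicate numbers.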
